A study of Homo sapiens with 6 samples.

Results

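The pathway of the hypoxia-inducible factors (HIFs), leaving out glycolysis, was followed through 41 genes: the HIF subunits, the enzymes that sense oxygen, and HIF target genes with other functions. The genes were listed by symbol and not by a threshold on their values, but earlier results of these data were known when they were chosen. All 41 were among the 36517 genes of the count table, and 37 had enough reads to be tested. Most of these were lower once tRF-1-Ser was targeted, and the falls were uneven. CA9, a carbonic anhydrase of the cell surface, went from 411 counts in the control libraries to 2, and NDRG1, a stress-induced cytoplasmic protein, fell 16.3-fold, while HIF1A, the gene of the best-known HIF subunit, fell 1.29-fold. BHLHE41, a repressor of transcription, rose 2.65-fold.

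HIFs are transcription factors made of an alpha subunit, which is destroyed when oxygen is present, and a beta subunit, which is stable. Prolyl hydroxylases (the EGLN enzymes) use oxygen to mark the alpha subunit, and the ubiquitin ligase built around VHL then removes it. When the alpha subunit escapes, the complex binds a short DNA core, the hypoxia response element, and turns on genes for vessel growth, acid export, collagen modification and reduced mitochondrial activity, a programme often active in breast tumours.

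Messenger RNA was sequenced from MDA-MB-453 cells, an established human breast cancer line. The comparison asked which transcripts differ when tRF-1-Ser, a fragment released from the end of a serine transfer RNA precursor, is knocked down. Both groups received lentivirus: in the control group it expressed a negative-control hairpin (shNC), in the shtRF group one directed at tRF-1-Ser. The paper describes the sequenced knockdown cells and their controls as stable cells. No other allele or agent is named, and all cells were sampled at day 3, counted from a point that the labels do not give. There were 3 libraries per group, numbered 1 to 3, and a low oxygen level is not named for either group. The paper calls the replicates of its mRNA sequencing biological. Whether they came from separate transductions is not stated, so p-values measure only the spread between these libraries, which may be technical. One hairpin was used per group, and tRF-1-Ser itself was not measured in these mRNA counts, so the knockdown could not be checked here.

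Coordinates of genes are on GRCh38, as in the count table. Library totals were 63541413 to 78917459 counts. Values per library are CPM, the counts out of 1000000 after TMM scaling, and group values are given as mean ± SD (n = 3). Tests are edgeR's quasi-likelihood test with Benjamini-Hochberg adjustment over all 19628 genes tested. Markers of the line were high, with ERBB2, a growth factor receptor, between 385 and 426 CPM in control and between 345 and 378 CPM in shtRF libraries. GATA3, a luminal transcription factor, was between 248 and 270 CPM in control and between 234 and 240 CPM in shtRF libraries. Of 9 markers of the line, 3 were lower at an adjusted p under 0.05, these 2 among them, and 3 were higher. Of all tested genes, 18.9% were lower and 20.6% higher. The keratin genes KRT8 and KRT18 rose by 0.79 and 0.64 on the log2 scale. The 4 fibroblast markers found other than COL1A1 summed to at most 0.477 CPM, the 4 immune markers other than CD68 to at most 0.246 CPM and the 5 endothelial markers to at most 0.437 CPM. COL1A1 fell by 0.62 on the log2 scale from a mean of 32.2 CPM, and CD68, with 85.8% of its exonic sequence inside other genes, rose by 0.57. Their part in the results below was not tested. In bulk libraries such as these, fewer cells expressing a gene and less RNA per cell cannot be told apart.

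The DNA in front of some of these genes is shown first, because the hypoxia response element is the sequence through which HIF acts. No sequence was searched to choose the genes. They were listed as genes of the HIF pathway, however, so a high share with a core is not independent of that choice. Its core was searched as ACGTG and as GCGTG, on both strands, in RefSeq promoter windows (GRCh38.p14) from 250 bases before to 50 bases after the annotated start. The 250 bases before the start are printed 5′ to 3′ on the strand of the gene, with each match in capitals (a match on the other strand reads CACGT or CACGC). The first 4 genes fell by over 2-fold and the last 2 rose. The windows lie at chr9:35673678-35673927 (+) for CA9, chr10:72273674-72273923 (+) for DDIT4, chr11:568458-568707 (-) for MIR210HG, chr2:172555840-172556089 (+) for PDK1, chr12:26125038-26125287 (-) for BHLHE41 and chr19:4968863-4969112 (+) for KDM4B.
CA9: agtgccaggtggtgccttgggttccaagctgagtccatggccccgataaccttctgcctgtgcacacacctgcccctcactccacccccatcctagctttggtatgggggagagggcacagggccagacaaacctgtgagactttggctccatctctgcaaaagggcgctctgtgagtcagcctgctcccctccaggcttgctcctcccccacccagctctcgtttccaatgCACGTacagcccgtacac
DDIT4: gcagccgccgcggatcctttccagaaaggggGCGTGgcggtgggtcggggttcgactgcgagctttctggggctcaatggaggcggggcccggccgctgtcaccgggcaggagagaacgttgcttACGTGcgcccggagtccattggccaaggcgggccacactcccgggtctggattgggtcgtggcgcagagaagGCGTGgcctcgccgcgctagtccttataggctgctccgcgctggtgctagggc
MIR210HG: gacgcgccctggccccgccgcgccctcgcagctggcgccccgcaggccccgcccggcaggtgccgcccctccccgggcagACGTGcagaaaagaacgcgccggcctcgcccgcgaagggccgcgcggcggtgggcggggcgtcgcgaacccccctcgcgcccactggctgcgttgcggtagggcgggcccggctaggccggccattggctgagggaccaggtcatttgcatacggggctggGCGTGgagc
PDK1: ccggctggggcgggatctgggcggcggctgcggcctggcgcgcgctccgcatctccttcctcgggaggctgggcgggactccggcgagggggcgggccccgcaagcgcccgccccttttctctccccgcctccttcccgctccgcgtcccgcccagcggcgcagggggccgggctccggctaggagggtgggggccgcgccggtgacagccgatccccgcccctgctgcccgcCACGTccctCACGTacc
BHLHE41: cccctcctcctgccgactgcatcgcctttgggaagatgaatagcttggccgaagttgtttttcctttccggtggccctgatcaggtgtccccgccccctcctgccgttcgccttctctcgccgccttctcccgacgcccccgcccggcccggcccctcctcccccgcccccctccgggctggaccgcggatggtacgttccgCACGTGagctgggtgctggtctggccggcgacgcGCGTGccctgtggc
KDM4B: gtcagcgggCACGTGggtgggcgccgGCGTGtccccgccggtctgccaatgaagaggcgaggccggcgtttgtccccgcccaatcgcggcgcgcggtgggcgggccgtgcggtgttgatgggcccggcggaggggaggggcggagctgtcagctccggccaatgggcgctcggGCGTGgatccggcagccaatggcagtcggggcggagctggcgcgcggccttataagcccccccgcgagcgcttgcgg

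CA9 held a single match, with its first base 18 bases before the start, and PDK1 held 2, at 17 and 8 bases before it. PDK1 had 2 windows, of which the one with more matches is printed, and the other held none. DDIT4 held 3 matches before the start, at 219, 125 and 53 bases, and MIR210HG held 2, at 170 and 9 bases. The rising genes held matches as well. BHLHE41 held a GCGTG 14 bases before the start, and KDM4B held GCGTG at 224 and 77 bases. Both also held a core inside the palindrome CACGTG, the E-box bound by many other factors, which counts as a match on each strand. The E-box was in 3 of the 17 falling genes with a window too, BNIP3, BHLHE40 and ANKRD37. Of the 41 genes, 33 had a window, and ARNT2, VHL, VEGFA, STC1, KISS1R, BNIP3L, NDRG1 and LOXL2 had none. A gene counted as holding a core if any of its windows did. The core was present in 29 of the 33 (87.9%), against 52.4% of all 27305 genes with a window and 68.9% of the 10853 tested genes that could be matched by symbol. EGLN3, HIF1AN, P4HA2 and RORA had no match in these letters. With ACGTG alone the shares were 60.6% of the 33, 24.9% of all genes and 32.0% of the tested genes. CACGTG was in 21.2%, 8.77% and 12.4% of them.

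A core was found among genes of every direction. It was present in 15 of 17 among those that fell, 4 of 5 among those that rose and 8 of 9 among tested genes that did not pass. Over all tested genes with a window it was in 71.7% of those that fell and 67.7% of those that rose. These are matches of letters in a window, and binding was not measured.

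**Figure D1:**
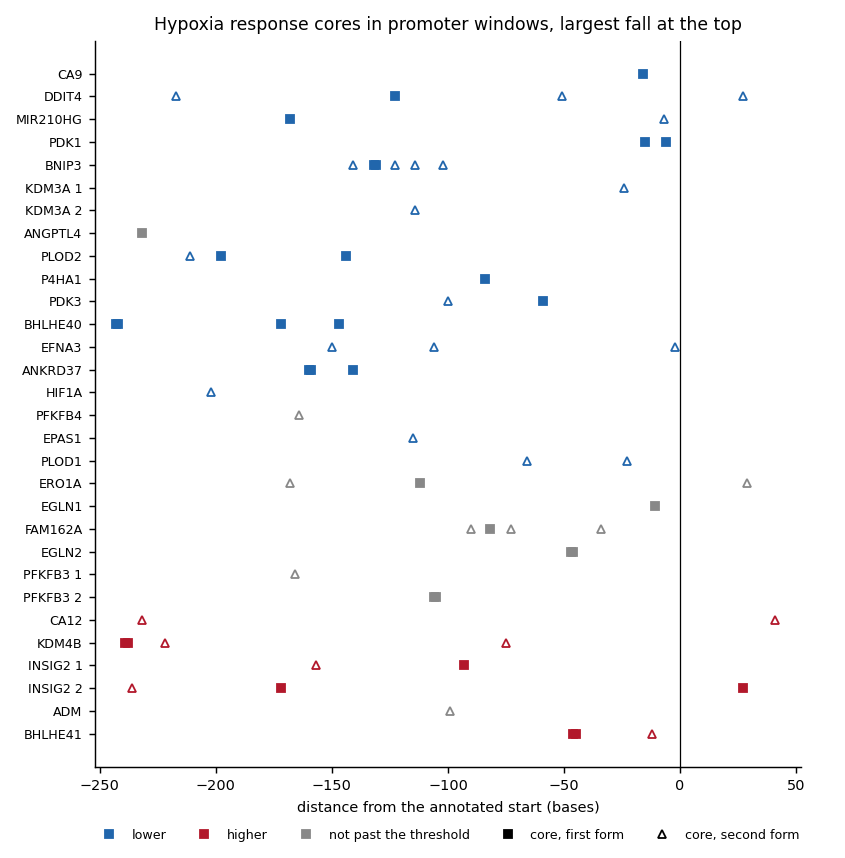
Position of each core match in the promoter windows of the tested genes, in bases from the annotated start (x axis, match centre), with genes ordered from the largest fall at the top to the largest rise at the bottom. Filled squares are ACGTG and open triangles GCGTG, on either strand, coloured by whether the gene was lower, higher or not past the threshold. Genes with matches in 2 windows have numbered rows, and windows without a match are not drawn. Matches occur from the top to the bottom of the order, in 15 of 17 genes that fell and 4 of 5 that rose.

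Of the 37 genes tested, 21 were lower in shtRF (18.9% of all tested genes were) and 5 were higher (20.6% of all). A fall of over 2-fold with an adjusted p under 0.05 was found for 7 of them, against 3.11% of all tested genes, and a rise of that size for 1, against 2.66%. All 3 shtRF libraries lay below all 3 control libraries for 22 of the 37, where 23.8% of all tested genes did so, and above them for 6, where 24.9% of all did. Because the genes were chosen with earlier results of these data known, the comparisons with all tested genes are a description only. The median log2 fold change was -0.36 over the 37 and -0.0025 over all tested genes. CA9 lies below the median also at the bound that 3 counts per library allow (-5.43), so the median is -0.36 with it there. CA9 passed the filter on low counts through its control libraries alone. ARNT2, HIF3A, LOX and KISS1R were too low to test, with 0 to 10 counts in each library.

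**Figure D2:**
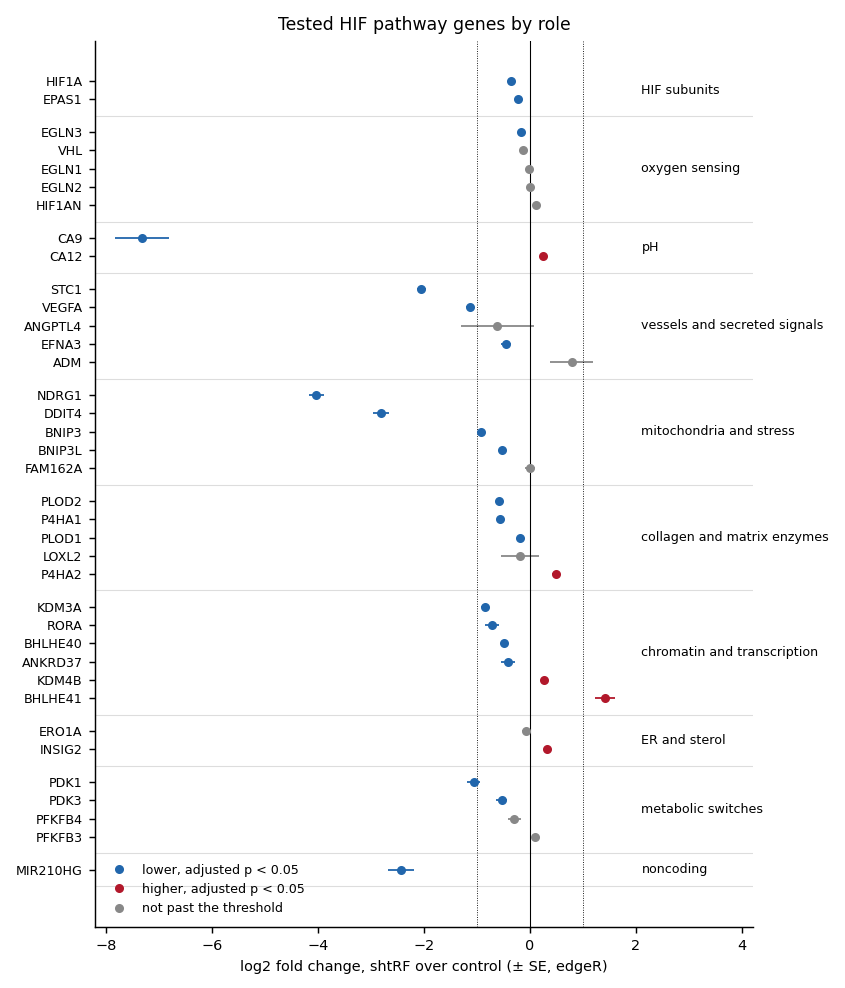
Log2 fold change of shtRF over control (x axis) with its standard error from edgeR for the 37 tested genes, grouped by role. Blue points were lower and red points higher at an adjusted p under 0.05, grey points did not pass, and dotted lines mark 2-fold. The points run from CA9, whose fitted value rests on 2 counts in shtRF, to BHLHE41 at 1.41, and most lie left of 0.

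The subunits and the sensors changed little. HIF1A (chr14:61695513-61748259) was at 42.1, 47.4 and 42.3 CPM in control libraries 1 to 3 and at 34.6, 33.7 and 34.2 CPM in shtRF, with a log2 change of -0.36 ± 0.061 (SE; adjusted p = 5.09e-05). EPAS1, which encodes the HIF-2 alpha subunit, was at 54.4, 56.3 and 52.7 CPM in control and 45.0, 46.9 and 46.8 CPM in shtRF, with a log2 change of -0.24 ± 0.055 (adjusted p = 0.00157). For both subunits every shtRF library lay below every control library. The other alpha and beta subunit genes on the list, HIF3A and ARNT2, were near the floor in both groups.

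Among the 5 sensors, 1 passed the test, as lower, near the 18.9% of all tested genes that were lower. EGLN3, the prolyl hydroxylase that is itself a HIF target, went from 109 ± 6.28 to 97.0 ± 4.57 CPM, or -0.16 ± 0.057 on the log2 scale (adjusted p = 0.0267). The groups did not overlap, but control 1 (102 CPM) and shtRF 1 (101 CPM) almost touched. Without control 2, control 3, shtRF 2 or shtRF 3 its adjusted p was 0.0598, 0.104, 0.162 or 0.0684, so the call rested on having all of these libraries. EGLN1, the main prolyl hydroxylase, was at 88.1 ± 5.67 and 87.3 ± 6.55 CPM (log2 difference -0.01, 95% interval -0.13 to 0.11). EGLN2, a further prolyl hydroxylase, was at 53.0 ± 1.36 and 52.9 ± 2.38 CPM (-0.00, interval -0.11 to 0.11), and 27.2% of its exonic bases are shared with the read-through gene RAB4B-EGLN2. VHL, the substrate receptor of the ligase, was lower in every shtRF library without passing the test (log2 difference -0.12, adjusted p = 0.0955). HIF1AN, which hydroxylates the alpha subunit at an asparagine and blocks its coactivators, was higher in every shtRF library without passing (0.12, adjusted p = 0.0773).

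The pair of carbonic anhydrases, enzymes that help export acid, parted. CA9 (chr9:35673856-35681159, plus strand) had 116, 162 and 133 counts in control libraries 1 to 3 and 2, 0 and 0 counts in shtRF. It was close to absent from every shtRF library, though its control level of 1.86 ± 0.25 CPM was low. Scaled to library totals the ratio of control to shtRF was 194, with a 95% counting interval of 53.4 to 1610 that covers counting error only. Low counts were mostly even in all libraries, so mates may have been counted singly. With halved counts, 206 against 1, the interval was 34.6 to 7729. The fitted log2 fold change of -7.32 (edgeR adjusted p = 1.61e-10) depends on the prior count that edgeR adds. CA9 entered that test through its control libraries alone. CA9 shares 38.5% of its exonic bases with ARHGEF39 on the opposite strand, which had 769 to 1060 counts in control and 833 to 1008 in shtRF libraries. CA12, the related enzyme, was at 205, 203 and 222 CPM in control and 243, 245 and 255 CPM in shtRF. Every shtRF library was above every control library, and the log2 fold change was 0.24 ± 0.054 (adjusted p = 0.00132). Per exon length CA12 was far above CA9 from the start, at 29.3 ± 1.29 against 1.14 ± 0.16 RPKM (CPM without TMM, per kilobase of exon) in control.

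Of 5 genes for vessel growth and secreted signals that were tested, 3 fell (18.9% of all tested genes did). VEGFA (chr6:43770184-43786487), the main growth factor of blood vessels, was at 436, 436 and 341 CPM in control and 178, 184 and 188 CPM in shtRF. Its log2 fold change was -1.14 ± 0.073 (adjusted p = 4.29e-11), and the shtRF libraries lay within a narrow band while control 3 stood below the other controls. STC1 (chr8:23841915-23854807), a secreted glycoprotein hormone, was at 23.3, 24.9 and 23.6 CPM in control and 6.24, 5.59 and 5.52 CPM in shtRF. On the log2 scale this was -2.05 ± 0.083 (adjusted p = 2.34e-14), with tight libraries on both sides. EFNA3, an ephrin ligand, fell by 0.46 (adjusted p = 0.000381). Of its exonic bases 44.7% are shared with RP11-540D14.8, which had a log2 fold change of -0.43, so reads of the 2 genes cannot be told apart there.

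The remaining secreted signals were scarce. ADM, the vessel-widening peptide adrenomedullin, had 10, 39 and 40 counts in control and 48, 34 and 54 counts in shtRF (log2 difference 0.78 ± 0.40, adjusted p = 0.134). ANGPTL4, a regulator of lipoprotein lipase, had 6, 19 and 14 counts in control and 4, 18 and 1 in shtRF (-0.62 ± 0.69, adjusted p = 0.52). For both the groups overlapped. Leaving out single libraries moved ADM between 0.41 (without control 1) and 1.01 (without control 2). It moved ANGPTL4 between -0.13 (without shtRF 3) and -2.17 (without shtRF 2, adjusted p = 0.0652), with -0.27 without control 2 and -0.30 without shtRF 1.

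The group of mitochondrial and stress genes held the largest falls in well-covered genes, with 4 of 5 lower (18.9% of all tested genes were). NDRG1 (chr8:133237171-133302022) was at 51.8, 58.5 and 42.7 CPM in control and 2.55, 2.48 and 4.43 CPM in shtRF, or -4.03 ± 0.147 on the log2 scale (adjusted p = 4.75e-15). Its shtRF libraries differed among themselves more than most genes did, since shtRF 3 lay well above the other shtRF libraries (coefficient of variation 35.2%, against a 95th percentile of 16.3% over 13189 genes with a mean of at least 2 CPM). DDIT4 (chr10:72273920-72276036), an inhibitor of the growth kinase mTORC1, was at 503, 429 and 254 CPM in control and 56.8, 53.6 and 58.1 CPM in shtRF. The spread was on the control side here: control 3 was far below control 1, while the shtRF libraries were nearly equal. The log2 fold change was -2.81 ± 0.147 (adjusted p = 1.46e-12), and under every alternative run it stayed between -3.05 and -2.61.

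DDIT4 shares 41.2% of its exonic bases with RP11-442H21.2 on the opposite strand, and that gene was credited with 17302 to 28303 counts in control and 3128 to 3487 in shtRF libraries. Its log2 fold change of -2.79 was close to that of DDIT4, and reads of the shared exons cannot be assigned to either from these counts. DDIT4 was the most abundant of the 41 per exon length in control, at 196 ± 63.8 RPKM, and went to 26.8 ± 1.53 RPKM in shtRF.

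BNIP3, a mitochondrial protein that marks mitochondria for removal, was at 54.8, 60.2 and 53.2 CPM in control and 30.9, 29.8 and 27.8 CPM in shtRF (log2 fold change -0.93 ± 0.063, adjusted p = 1.05e-10). BNIP3L, its close relative with the same role, fell by 0.53 (adjusted p = 4.77e-07), from 44.4 ± 1.48 to 30.8 ± 1.93 CPM. Both were lower in every shtRF library. FAM162A, a mitochondrial protein linked to hypoxic cell death, was at 15.7 ± 1.82 and 15.6 ± 1.50 CPM (log2 difference -0.00, 95% interval -0.18 to 0.17).

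Collagen and matrix enzymes went both ways. P4HA1, a catalytic subunit of the collagen prolyl hydroxylase, was at 121, 129 and 126 CPM in control and 87.6, 85.0 and 82.9 CPM in shtRF (log2 fold change -0.56 ± 0.052, adjusted p = 1.67e-08). P4HA2, the alternative catalytic subunit of the same enzyme, was at 41.7, 37.1 and 37.0 CPM in control and 52.3, 53.0 and 56.2 CPM in shtRF (0.48 ± 0.061, adjusted p = 1.47e-06). One subunit was lower and the other higher in every shtRF library. PLOD2, the lysyl hydroxylase of collagen ends, fell by 0.58 (adjusted p = 1.69e-07). PLOD1, the lysyl hydroxylase of the collagen helix, fell by 0.20 (adjusted p = 0.00996), a call that was lost without shtRF 1 (adjusted p = 0.0552). LOXL2, a lysyl oxidase that crosslinks collagen, had 22 to 43 counts per library in all (-0.19 ± 0.36, adjusted p = 0.722), and LOX, another lysyl oxidase, had 7 to 10.

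All 6 regulators of chromatin and transcription passed the test, 4 lower and 2 higher. Of all tested genes, 18.9% were lower and 20.6% higher. KDM3A, a demethylase of histone H3 lysine 9, was at 144, 151 and 131 CPM in control and 74.5, 77.9 and 82.3 CPM in shtRF (log2 fold change -0.86 ± 0.06, adjusted p = 1.72e-10). KDM4B, a demethylase of the same lysine in its trimethylated state, was at 74.2, 66.0 and 71.6 CPM in control and 83.1, 82.6 and 90.0 CPM in shtRF (0.27 ± 0.058, adjusted p = 0.000658). The demethylases thus moved in opposite directions, each with groups that did not overlap.

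BHLHE40 and BHLHE41, closely related repressors of the circadian clock, also parted. BHLHE40 was at 160, 165 and 135 CPM in control and 106, 111 and 112 CPM in shtRF (log2 fold change -0.49 ± 0.065, adjusted p = 2.53e-06). BHLHE41 (chr12:26120026-26125127) was at 1.60, 1.03 and 1.15 CPM in control and 2.93, 3.92 and 3.14 CPM in shtRF, from 78 to 104 and 195 to 269 counts (1.41 ± 0.19, adjusted p = 3.33e-06). It was the only one of the 41 to rise by over 2-fold, from a control level with a coefficient of variation of 23.7%. RORA, a nuclear receptor of the clock, fell by 0.72 (adjusted p = 7.66e-05), from 6.37 ± 0.532 to 3.88 ± 0.499 CPM. ANKRD37, a small ankyrin repeat protein, fell by 0.41 (adjusted p = 0.0118). It shares 35.2% of its exonic bases with UFSP2 on the opposite strand, and its call was lost without control 2 (adjusted p = 0.0541).

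Of the metabolic switches outside the glycolytic chain, the kinases that switch off the pyruvate dehydrogenase complex were lower. PDK1 (chr2:172555373-172608669) was at 9.15, 9.59 and 8.14 CPM in control and 4.19, 3.55 and 5.13 CPM in shtRF (log2 fold change -1.06 ± 0.124, adjusted p = 4.24e-07). PDK3 was at 10.4, 10.9 and 8.84 CPM in control and 6.44, 7.27 and 7.10 CPM in shtRF (-0.54 ± 0.102, adjusted p = 0.000208). Neither had overlapping groups. The bifunctional enzymes that set the level of the glycolytic activator fructose 2,6-bisphosphate did not pass. PFKFB3 was at 77.5 ± 3.19 and 82.9 ± 7.69 CPM (log2 difference 0.10, adjusted p = 0.243), and passed as higher without shtRF 1 (0.16, adjusted p = 0.0425). PFKFB4 was at 5.66 ± 0.398 and 4.61 ± 0.725 CPM (-0.30, adjusted p = 0.0687), and passed as lower without shtRF 2 (-0.43, adjusted p = 0.0169) and with the replicate number as a block (-0.30, adjusted p = 0.045).

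In the endoplasmic reticulum, INSIG2, which holds back sterol synthesis, was at 51.3, 55.8 and 50.6 CPM in control and 70.0, 61.3 and 66.3 CPM in shtRF. It was higher in every shtRF library (log2 fold change 0.33 ± 0.061, adjusted p = 0.000174). ERO1A, the oxidase that supports disulfide formation, was at 41.8 ± 2.43 and 39.4 ± 0.957 CPM (-0.08, 95% interval -0.20 to 0.03).

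MIR210HG, the host gene of the hypoxia-induced microRNA miR-210, was the noncoding gene of the list (chr11:565660-568457, minus strand). It had 172, 176 and 177 counts in control and 43, 24 and 22 counts in shtRF, or 2.40 ± 0.221 and 0.439 ± 0.15 CPM. The groups were far apart, with shtRF 1 the highest of its group (log2 fold change -2.44 ± 0.243, adjusted p = 4.49e-08). The mature miR-210-3p lies inside the gene at chr11:568112-568133 (minus strand, RefSeq, GRCh38.p14) and outside its annotated exons. It is shown with its seed, bases 2 to 8, in capitals. The microRNA itself was not measured by these mRNA libraries.
hsa-miR-210-3p: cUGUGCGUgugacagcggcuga

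Relatives within the list were then set against each other inside each library, as the ratio of their RPKM values, so that library scaling cancels. RPKM divides by all annotated exonic bases of a gene, for example 3093 for P4HA1 and 8502 for P4HA2. The size of a ratio depends on these lengths, but its change between groups does not. Of 11 pairs, 10 could be tested, and in 8 the groups did not overlap. With 3 libraries against 3, the exact permutation test (two-sided) cannot go below p = 0.1, which these 8 reached (0.125 after Benjamini-Hochberg adjustment over the 10 pairs). No pair could therefore pass a threshold of 0.05. Most of these pairs hold genes already called above, and the share of gene pairs in general that separate in this way was not determined.

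The 2 collagen hydroxylase subunits drew closer. P4HA1 was 7.99, 9.56 and 9.39 times P4HA2 in control and 4.60, 4.41 and 4.06 times in shtRF, a log2 difference of -1.04. By CPM the 2 were nearer, at means of 126 and 38.6 in control and 85.2 and 53.8 in shtRF. KDM3A was 2.12, 2.50 and 2.00 times KDM4B in control and 0.983, 1.03 and 1.0 times in shtRF (-1.13), so their RPKM values became level. By CPM, KDM3A was below KDM4B in every shtRF library. BHLHE41 rose relative to BHLHE40 by 1.90 on the log2 scale, although it stayed at 0.0269 to 0.0344 of its level in shtRF libraries.

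In the remaining pairs the differences were smaller. BNIP3 went from 1.02, 1.06 and 0.984 times BNIP3L to 0.874, 0.748 and 0.710 times (log2 difference -0.40). The other differences without overlap were -0.54 for PDK1 over PDK3, -0.40 for PFKFB4 over PFKFB3, -0.38 for PLOD2 over PLOD1 and -0.12 for HIF1A over EPAS1. The ratios of EGLN3 to EGLN2 (-0.16, exact permutation p = 0.2) and of EGLN1 to EGLN2 (-0.01, exact permutation p = 1) overlapped between groups. CA9 over CA12 had shtRF libraries at 0 and no log ratio.

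**Figure D3:**
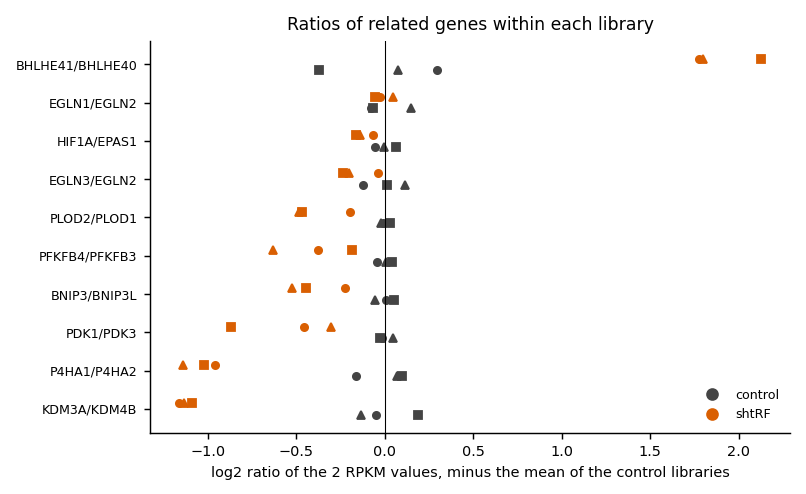
Log2 ratio of the RPKM values of 2 related genes in each library, minus the mean of the control libraries (x axis), for the 10 pairs tested. Grey is control, orange is shtRF, and the symbol (circle, square, triangle) is replicate 1, 2 or 3. The shtRF libraries lie left of all control libraries in 7 pairs, right of them for BHLHE41 over BHLHE40, and among them for the 2 EGLN pairs.

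To see whether single libraries carried the falls, the spread was followed per library. For each of the 21 genes that fell, libraries were compared with the mean of their own group on the log2 scale. Control 2 was the highest control in 16 of the 21 and control 3 the lowest in 12, while control 1 was the lowest in 8. The median deviation over the 21 genes was -0.00092 in control 1, 0.096 in control 2 and -0.073 in control 3. In shtRF it was -0.026, -0.015 and 0.03. Control 2 was the highest control for 37.5% of all tested genes that fell and for 33.0% of all tested genes. Control 3 was the lowest control for 41.7% of all tested genes that fell and for 35.8% of all tested genes. DDIT4, VEGFA, NDRG1, KDM3A and BHLHE40 had control 3 as their lowest control, whereas in STC1 the controls were nearly level. For most of the well-expressed genes the spread was ordinary. The median coefficient of variation over 13189 genes was 6.03% in control and 5.32% in shtRF libraries, and P4HA1 had 3.13% and 2.75%. DDIT4 (32.4%) and BHLHE41 (23.7%) in control were above the 95th percentile of that group (17.5%). NDRG1 (35.2%) and PDK1 (18.5%) in shtRF were above the 95th percentile of theirs (16.3%).

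Large changes were found at high and at low levels. Per exon length in control, DDIT4 was followed by P4HA1 at 41.3 ± 1.43, BHLHE40 at 40.7 ± 4.55, CA12 at 29.3 ± 1.29 and VEGFA at 28.5 ± 4.02 RPKM. P4HA1 and BHLHE40 did not differ beyond their spread on this scale, and neither did CA12 and VEGFA. The order depends on the annotated exonic bases, 14431 for VEGFA against 2058 for DDIT4. By CPM, VEGFA was at 404 ± 55.0 and DDIT4 at 395 ± 128 in control. In shtRF the order began with CA12 at 33.2 ± 0.971, BHLHE40 at 28.0 ± 0.372, P4HA1 at 27.0 ± 1.31 and DDIT4 at 26.8 ± 1.53 RPKM, of which the last 3 did not differ beyond their spread. VEGFA stood at 12.5 ± 0.238 RPKM in shtRF, close to EGLN3 at 12.9 ± 0.9 RPKM, though by CPM it was at 184 against 97.0.

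Other genes of the pathway are read against the same shares of all tested genes, 18.9% lower and 20.6% higher. Of 33 further HIF targets tested, 14 were lower and 6 higher, with a median log2 fold change of -0.21, so the count higher was near the share of all genes. VLDLR, a lipoprotein receptor (-1.59), and AK4, a mitochondrial adenylate kinase (-1.38), fell most among those with a mean of at least 2 CPM, and TFRC, the transferrin receptor (1.35), and HMOX1, the heme oxygenase (1.32), rose most. Of 16 glycolytic HIF targets 10 were lower and 3 higher (median -0.27), the latter again near that share. By the same rule on level, LDHA, which makes lactate (-1.13), and PGK1, a kinase of lower glycolysis (-0.93), fell most, while SLC2A1, the main glucose transporter (0.46), and HK1, a hexokinase (0.20), rose.

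Of 10 HIF partners and parts of the VHL ligase, 3 were lower and 2 higher (median 0.0086), few genes to set against shares of 18.9% and 20.6% of all tested genes. ARNT, the stable beta subunit, had a log2 difference of 0.01 and the coactivator EP300 of 0.01, and neither passed. CITED2, which competes with HIF for that coactivator, fell by 0.62, and SIAH2, a ligase for prolyl hydroxylases, fell by 0.46. ELOC, an adaptor of the VHL ligase (listed as TCEB1), rose by 0.31 and the coactivator CREBBP by 0.22. Medians and counts of these lists were not tested against each other.

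**Figure D4:**
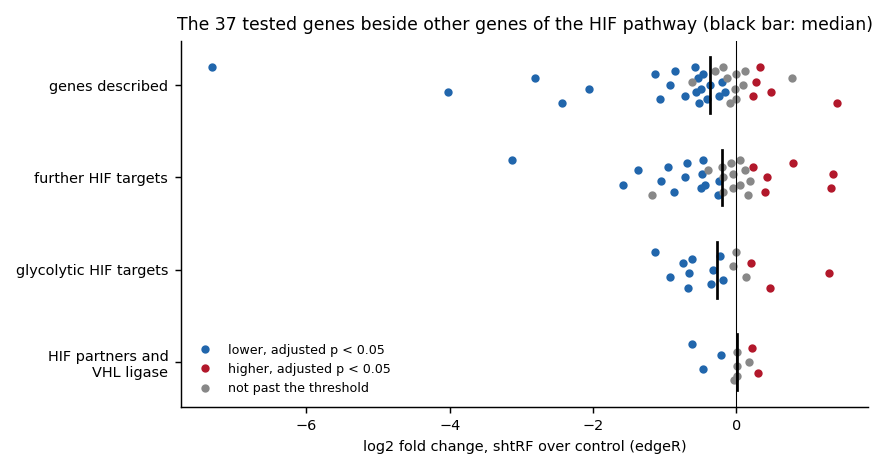
Log2 fold change of shtRF over control (x axis) for each tested gene described above (37 genes) and of the other lists of the HIF pathway (33, 16 and 10 genes). Blue points were lower and red points higher at an adjusted p under 0.05, grey points did not pass, and black bars are medians. The medians are -0.36, -0.21, -0.27 and 0.0086, and each of the target lists holds points on both sides of 0.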

How the data were processed

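mRNA of MDA-MB-453 cells was sequenced in 3 control and 3 shtRF libraries, grouped by sample title. The authors deposited raw read counts per gene (paired reads of a strand-marking kit). Per the submitters' processing notes, Trimmomatic 0.36, featureCounts of Subread 1.5.1, edgeR 3.12.1 and GRCh38 were used. The aligner, the annotation release and the use of strand in counting are not given in the sources used here. Gene spans and exon overlaps come from the exon coordinates in the count table, and all 41 genes overlapped the GRCh38 locus of the same symbol in GENCODE 29. A deposited RPKM table, held only in part, was not used. RPKM was recomputed from counts, length and library total.

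Counts were tested with edgeR 4.0.16 (R 4.3.3, limma 3.58.1): filterByExpr with a minimum count of 10, TMM (factors 0.9613 to 1.026), quasi-likelihood fit with group as the only term, Benjamini-Hochberg adjustment over 19628 genes. The biological coefficient of variation was 7.56%. The script was tested on simulated data. Intervals of counts cover counting error only. Ratios of pairs used exact permutation tests.

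The genes and lists were chosen with earlier results of these data known. Genes with a change of over 2-fold and no overlap between groups, and those that rose, were given with every library's value. From each other list the 2 largest falls and 2 largest rises with a mean of at least 2 CPM were named. PPP1R3C and LUM were not found by symbol, and 1 marker of the line is not reported here. Alternatives were RLE and upper quartile scaling, other filters, DESeq2 1.42.0, limma-trend on log2(RPKM + 1) and log2(RPKM + 0.1), glmTreat, halved counts, the replicate number as a block, genes with under 10% exon overlap, and leaving out each library.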

Additional observations from a re-analysis of the deposited data

How the results depend on the processing

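Of 618 values of the 37 tested genes under the alternatives, 597 kept their direction and side of the threshold, 6 lost and 6 gained a call, and 9 changed sign without passing in either fit. These 9 came from leaving out single libraries, which gave -0.074 to 0.042 for EGLN1, -0.031 to 0.024 for EGLN2, -0.092 to 0.099 for FAM162A and -0.41 to 0.0198 for LOXL2. Of the 26 called genes, 23 kept their call under every alternative in which they were tested. EGLN3, PLOD1 and ANKRD37 lost theirs without single libraries, as given above. VHL passed as lower under upper quartile scaling (-0.16, adjusted p = 0.0331) and with at least 1 CPM in 3 libraries (-0.14, adjusted p = 0.0417), a filter chosen after seeing the data, and PFKFB4 passed under upper quartile scaling (-0.33, adjusted p = 0.0416). The genes lower in shtRF numbered 17 to 23, the 17 being of 32 genes with under 10% exon overlap. Falls of over 2-fold numbered 5 to 7. The rise of over 2-fold of BHLHE41 was not kept under glmTreat against 2-fold, which left 0 such rises among the 41, nor under limma-trend on log2(RPKM + 1), which also left 0. The latter scale understates genes that are low in a group. It gave CA9 -1.08, NDRG1 -2.25, STC1 -1.54, MIR210HG -0.79, PDK1 -0.33, RORA -0.17 and BHLHE41 0.46, each still past the threshold. Both limma-trend scales left 1 HIF partner higher, and leaving out single libraries gave 1 to 3 partners lower and 1 to 3 higher. The share of windows with a core was 60.6% with ACGTG alone. Upper quartile scaling moved the calls over all genes from 4046 higher and 3704 lower to 3508 higher and 4174 lower.

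With the replicate number as a block, 22 of the 37 were lower and 5 higher, and 7 fell and 1 rose by over 2-fold; of the calls, the one gained was PFKFB4 (-0.30, adjusted p = 0.045). Deviations of same-numbered libraries correlated at 0.0167, -0.0044 and 0.0039 over all tested genes, so no pairing by number was seen. Libraries of unlike number were not compared, and pairing that touches few genes could be missed. Counts of 1 to 4 were even in 74.2% to 77.1% of cases against 49.7% to 50.7% of counts of 1000 or more. With halved counts 21 genes were lower and 5 higher. Depth limits ADM, ANGPTL4 and LOXL2, and the 4 genes not tested.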
